A study of Mus musculus with 2 samples.

Results

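Cell-cycle exit in bone was examined through 10 genes: the CDK inhibitors Cdkn1a, Cdkn1b, Cdkn1c, Cdkn2a, Cdkn2b, Cdkn2c and Cdkn2d, the cyclin gene Ccnd1, the retinoblastoma gene Rb1 and the lamin gene Lmnb1. The genes were chosen by name, and all 10 are among the 21905 gene symbols listed in each of 2 single-cell RNA libraries. One library came from vehicle-treated mice (Veh) and the other from doxorubicin-treated mice (Doxo, 10 mg/kg), both from leg bones (tibias and femurs) of female animals aged 12 weeks and collected at 96 h. Bone-resident cells were released with collagenase and depleted of CD45+, CD71+ and Ter119+ cells, and the labels also give CD31+ cells as depleted, although endothelial-like cells remained in both libraries. The strain of these mice and the number behind each library are not given in the sources used here. Each library held 2488 cells, with a median of 8693 UMIs (unique molecular identifiers, counts of captured molecules) per cell in Veh and 7347.5 in Doxo, and 4 cell barcodes occurred in both.

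There is 1 library per condition, so no replicate check of any difference between Veh and Doxo exists and no test was made. Intervals are at 95% and cover counting error only. The cells were clustered and named by marker genes, each named class having between 5 and 8 of its 8 markers. CXCL12-abundant reticular (CAR)-like cells, the marrow stromal cells that support blood formation, numbered 371 in Veh and 428 in Doxo. Bone and cartilage fibroblast-like cells numbered 1105 and 1358, arteriolar and endosteal fibroblast-like cells 413 and 249, osteoblast-like cells 205 and 125, chondrocyte-like cells 247 and 204, and endothelial-like cells 103 and 69. A cluster of 44 Veh and 55 Doxo cells, led by Clic5, Tmem196, Gpr1 and Rab37, had only 2 markers of any class and stayed unnamed. All genes of the cells entered the clustering, and 5 of the 10 genes were among its variable genes, so levels are compared between classes as a description only.

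Cyclin-dependent kinases drive a cell through its division cycle by phosphorylating the retinoblastoma protein, which otherwise holds back the E2F transcription factors. The CIP/KIP inhibitors, p21 (Cdkn1a), p27 (Cdkn1b) and p57 (Cdkn1c), bind complexes of cyclins with their kinases, whereas the INK4 inhibitors, p16 (Cdkn2a), p15 (Cdkn2b), p18 (Cdkn2c) and p19 INK4D (Cdkn2d), bind CDK4 and CDK6 and keep cyclin D away. Cdkn1a is a classical target of p53 after DNA damage, p16 and p21 are the inhibitors most often measured in senescent cells, and the loss of lamin B1 (Lmnb1) is a widely used sign of senescence.

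Of the 10 genes, 3 lie on chromosome 4 of GRCm38, all on the minus strand: Cdkn2a (89274471 to 89294653), Cdkn2b (89306299 to 89311039), which lies 11645 bases away from it, and Cdkn2c (109660876 to 109667189). Cdkn1a lies on the plus strand of chromosome 17 (29090976 to 29100727), Cdkn1b on the plus strand of chromosome 6 (134920401 to 134925513), and Cdkn1c (143458339 to 143461050) and Ccnd1 (144929931 to 144939925) on the minus strand of chromosome 7. Cdkn2d is on chromosome 9 (21288410 to 21291407, minus) and Rb1 on chromosome 14 (73183673 to 73325822, minus). In this annotation 4 of the genes overlap another gene: Cdkn1a, Cdkn1c and Ccnd1 on the opposite strand, and Rb1 on both strands. The strand setting of the counting is not given in the sources used here.

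The Cdkn2a locus makes 2 coding transcripts, and they are shown because the counts here cannot separate them. Cdkn2a-201 encodes p16 in 168 codons, and Cdkn2a-202 encodes ARF, the p53 activator that is called p19 in the mouse, in 169 codons. The last 30 bases of each first exon are in lower case and the first 30 bases of the shared exon 2 (chr4:89276645-89276985, minus strand) are in capitals, from the GENCODE M21 transcripts.
Cdkn2a-201: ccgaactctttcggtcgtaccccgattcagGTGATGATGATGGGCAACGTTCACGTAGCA
Cdkn2a-202: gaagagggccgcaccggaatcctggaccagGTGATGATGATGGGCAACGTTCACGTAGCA
The bases from exon 2 are identical, but the first whole codon of exon 2 starts directly at its first base in Cdkn2a-201 and after 2 bases in Cdkn2a-202, so the same letters are read in different frames. Exon 3 is shared as well, from 89274541 to 89274774, and the libraries were read near the 3′ end, so each Cdkn2a UMI may come from either transcript.

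The promoter windows of RefSeq (250 bases before and 50 after a start, GRCm38.p6) held 9 windows for 6 of the 10 genes. A pair of p53 consensus half-sites, matched without mismatch and at most 13 bases apart, was found in 24 of all 32851 windows (0.0731%). Since the half-site is its own reverse complement, this covers both strands. One of these windows is the upstream start of Cdkn1a, and the stretch is given with the pair and the bases inside it in capitals, on the plus strand at chr17:29090876-29090967.
Cdkn1a: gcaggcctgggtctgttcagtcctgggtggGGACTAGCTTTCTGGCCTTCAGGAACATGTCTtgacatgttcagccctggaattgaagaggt
The pair runs from 73 to 42 bases before that start. The stretch directly after the pair, as long as a half-site, matches the half-site except at its first base. The rule without mismatch left it unmarked, so the capitals need not be the whole site. The other Cdkn1a window and the windows of Cdkn1b, Cdkn2a, Cdkn2b, Cdkn2c and Cdkn2d did not hold such a pair, which says nothing of p53 binding there.

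Cdkn1a supplied more UMIs than any other CDK inhibitor gene in every class and in both libraries, but in Doxo CAR-like cells this rested on 1 cell. The 7 CDK inhibitor genes were compared by their summed UMIs, since 3′ counting gives 1 UMI per captured molecule whatever the length of the transcript. In CAR-like cells Cdkn1a made up 46.9% of the 1745 CDK inhibitor UMIs in Veh (interval 44.6 to 49.3%) and 41.1% of 1968 in Doxo. Cdkn1c came next there, with 33.3% in Veh (31.1 to 35.6%) and 37.8% in Doxo. In Doxo these were 809 Cdkn1a and 744 Cdkn1c UMIs. A single cell held 78 of the 809, so the lead did not hold without that cell. In bone and cartilage fibroblast-like cells the share of Cdkn1a was 77.2% in Veh and 73.5% in Doxo, with Cdkn1c next at 9.0% and 12.97%. Between these lay arteriolar and endosteal fibroblast-like cells, with Cdkn1a at 60.03% and 67.3% and Cdkn1c at 23.2% and 18.5%.

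Osteoblast-like cells were the class whose second inhibitor in both libraries was Cdkn1b, as it was in the unnamed cluster. Cdkn1b gave 18.6% of their 247 inhibitor UMIs in Veh and 13.2% of 197 in Doxo, against 8.1% and 4.6% for Cdkn1c. In chondrocyte-like cells Cdkn1a gave 64.4% and 61.9%, Cdkn1c 17.3% and 17.4%, and Cdkn2d, the p19 INK4D gene, came next with 8.3% and 8.7%. In endothelial-like cells Cdkn1a gave 72.1% and 68.5% and Cdkn1c 15.7% and 22.8%. The INK4 genes together gave between 2.6% (Doxo endothelial-like cells) and 16.5% (unnamed cluster in Veh) of the inhibitor UMIs, and among the named classes they were highest in chondrocyte-like cells, at 13.2% and 14.8%.

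**Figure D1:**
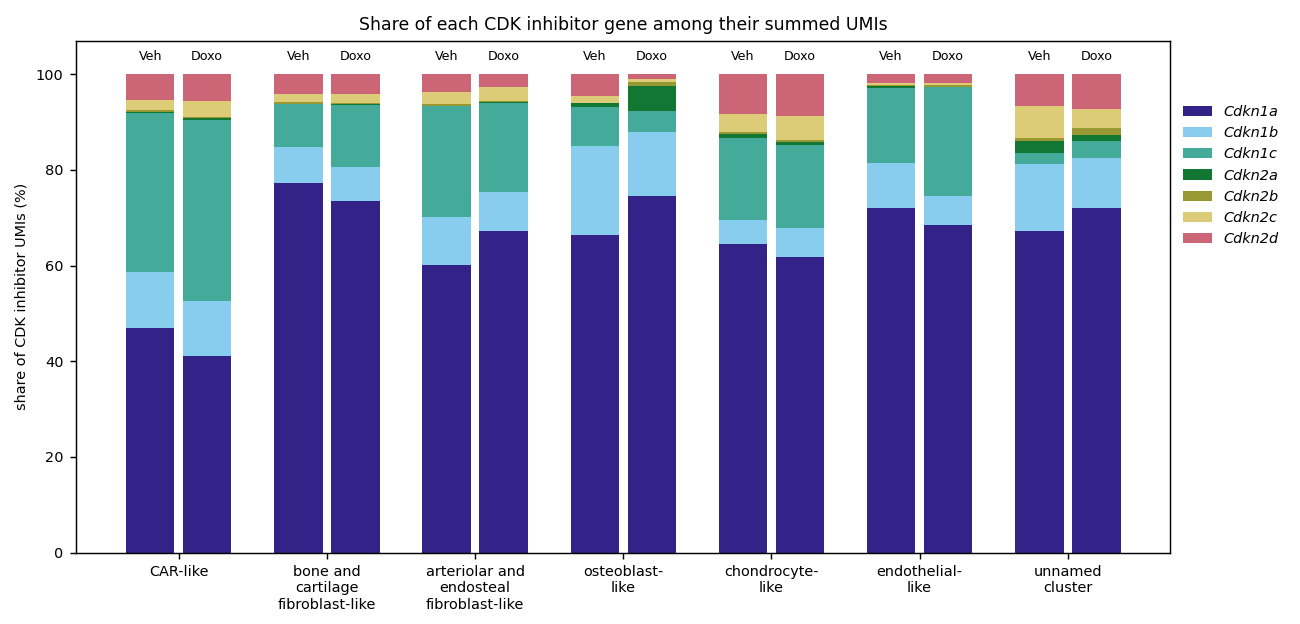
Share of each of the 7 CDK inhibitor genes among their summed UMIs (y axis, percent) in each cell class of the Veh and Doxo libraries, as stacked bars. Cdkn1a is the largest segment of all 14 bars, and the Cdkn1c segment comes nearest to it in CAR-like cells, at 33.3% in Veh and 37.8% in Doxo.

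The lead of Cdkn1a held in 102 of 108 recomputed shares. The other 6 were all in CAR-like cells, where Cdkn1c led: 5 in Doxo, among them every cell weighing the same (Cdkn1a 38.4%), and 1 in Veh, without population 2 of the CAR-like cells, described further on (Cdkn1a 23.6%). Outside osteoblast-like cells, most cells held UMIs of more than 1 inhibitor gene. Among chondrocyte-like cells 60.7% in Veh and 49.0% in Doxo held 3 or more inhibitor genes, at median depths of 19476 and 14769.5 UMIs. Osteoblast-like cells were the shallowest, with medians of 3065 and 2930 UMIs, and the share holding none was 51.7% in Veh and 39.2% in Doxo. Thinned to 2000 UMIs per cell, the share with any inhibitor UMI was 37.2% and 49.1% in osteoblast-like cells and between 58.2% and 77.0% in all other classes and libraries.

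Taken in total, inhibitor UMIs per 1000000 UMIs of a class (CPM) ran from 318 CPM in Veh osteoblast-like cells to 1189 CPM in Doxo endothelial-like cells. CAR-like cells stood at 685 CPM in Veh and 584 in Doxo, and bone and cartilage fibroblast-like cells at 1013 and 813. The total was higher in Doxo only in osteoblast-like cells (405 CPM), endothelial-like cells (1029 in Veh) and the unnamed cluster (578 and 600.2).

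Cdkn1a, the p21 gene, differed between Veh and Doxo by less than 1.5-fold in every class, and not in 1 direction. It was lower in Doxo in bone and cartilage fibroblast-like cells, at 782 CPM against 598 (log2 ratio of Doxo to Veh -0.39, interval -0.44 to -0.34). In CAR-like cells it was also lower, with 819 Veh UMIs (321 CPM) and 809 Doxo UMIs (240.2 CPM), the ratio being -0.42 (-0.56 to -0.28). It was higher in Doxo in osteoblast-like cells, at 211 CPM against 302 (ratio 0.52, 0.19 to 0.85). In the other classes the ratios lay between -0.17 (chondrocyte-like cells) and 0.15 (the unnamed cluster).

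In Veh the order of Cdkn1a levels ran from bone and cartilage fibroblast-like cells through endothelial-like cells (742 CPM), arteriolar and endosteal fibroblast-like cells (629), chondrocyte-like cells (536), the unnamed cluster (389) and CAR-like cells to osteoblast-like cells. The counting intervals of the first and second classes overlapped, as did those of the unnamed cluster and CAR-like cells. In Doxo endothelial-like cells came first, at 814 CPM, and CAR-like cells last, and the intervals of CAR-like and osteoblast-like cells overlapped. The CAR-like ratio passed 1.5-fold without the deepest 5% of cells (-0.73), with 20 principal components (-0.59) and when cells were assigned by marker genes alone (-0.61). The osteoblast-like ratio was 0.18 with the stricter cell filter, 0.97 at resolution 0.2 and -0.36 under the last of these, so its direction depended on which cells were counted.

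Genes switched on while cells are taken from tissue differed strongly between these same groups. The 10 genes of the dissociation list, immediate-early and heat shock genes such as Fos, Jun, Atf3 and Hspa1a, summed to 13204 CPM in Veh and 11309 in Doxo CAR-like cells and to 9622 and 7529 in osteoblast-like cells. They summed to 9910 and 15515 CPM in bone and cartilage fibroblast-like cells and to 11108 and 23848 in chondrocyte-like cells. In both of these classes Cdkn1a was lower in Doxo. The sum was also higher in Doxo in arteriolar and endosteal fibroblast-like (10813 and 14819 CPM) and endothelial-like cells (10805 and 13323) and in the unnamed cluster (5942 and 7727), where the ratios of Cdkn1a were 0.12, 0.14 and 0.15. The part of dissociation in the levels of Cdkn1a was not tested.

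Within the CAR-like cells the 2 libraries differed in which cells carried Cdkn1a. The CAR-like cells were subclustered without the 10 genes, while the dissociation genes and the other context lists were kept in and could shape the split. They fell into population 1 (215 Veh and 341 Doxo cells), population 2 (146 and 70), led by the secreted and early-response genes Ccl2, Ccl7, Cxcl1 and Myc, and population 3 (10 and 17), which held fibroblast markers and had a median of 18102 UMIs. In population 1 Cdkn1a had 102 UMIs (82.1 CPM) in Veh but 452 (181 CPM) in Doxo, and the log2 ratio was 1.14 (0.83 to 1.47). In population 2 it had 650 UMIs (567 CPM) in Veh but 203 (366 CPM) in Doxo, and the ratio was -0.63 (-0.87 to -0.40). Population 2 therefore held 650 of the 819 Cdkn1a UMIs of the Veh CAR-like cells, and without it the ratio over the rest was 0.84.

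The higher Cdkn1a level of Doxo population 1 came mostly from few cells. The share of population 1 cells with a Cdkn1a UMI was 34.0% in Veh (27.7 to 40.7%) and 37.0% in Doxo (31.8 to 42.3%), or 16.0% and 19.9% after thinning. The 10% of cells with most Cdkn1a held 50% of its UMIs in Veh and 70.8% in Doxo, up to 78 UMIs in 1 Doxo cell against at most 6 in a Veh cell. In the other 193 Veh and 306 Doxo cells the level was 45.9 and 61.3 CPM. The dissociation genes summed to 2854 CPM in Veh and 5240 in Doxo in population 1, and to 25577 and 36404 in population 2. Immune markers, 8 genes such as Ptprc, Cd74 and S100a8, summed to 2362 CPM in Veh population 1 and 97 in Doxo. The split follows genes of the same early response. In population 1, 5 members of the dissociation list were higher in Doxo, a count without a share of all genes beside it. The part of the split and of these genes in the ratios was not tested.

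**Figure D2:**
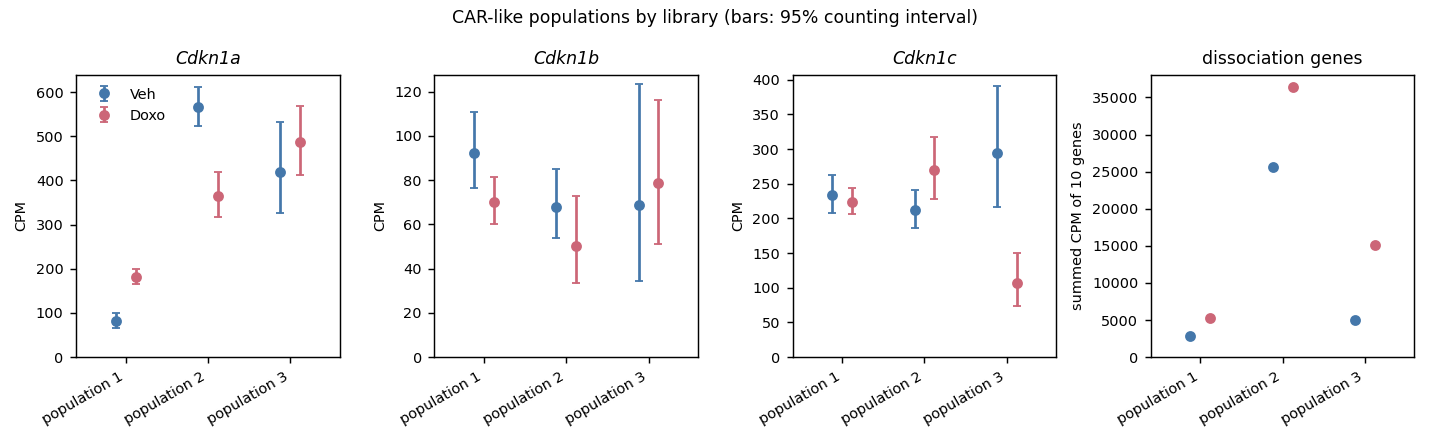
Level of Cdkn1a, Cdkn1b and Cdkn1c (CPM with its 95% counting interval) and the summed CPM of the 10 dissociation genes in the 3 populations of CAR-like cells, Veh in blue and Doxo in red. Cdkn1a is at 82.1 CPM in Veh and 181 CPM in Doxo in population 1, and at 567 and 366 CPM in population 2.

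The leading inhibitor also differed between the populations. Cdkn1c led in population 1, with 49.8% of the inhibitor UMIs in Veh and 42.2% in Doxo, while Cdkn1a gave 17.5% and 34.1%. In population 2 Cdkn1a led, with 63.1% and 50.1%. Cdkn1c itself stood at 234 CPM in Veh and 224 in Doxo in population 1 and at 212 and 270.2 in population 2, so its level varied far less between these populations than that of Cdkn1a.

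Cdkn1c, the imprinted p57 gene, varied most among the classes of the 3 CIP/KIP genes. It stood at 228 CPM in Veh and 221 in Doxo in CAR-like cells (log2 ratio -0.05, -0.20 to 0.11), and 62.0% and 64.7% of these cells held a UMI (32.9% and 34.1% thinned). Arteriolar and endosteal fibroblast-like cells had 243 CPM in Veh and 188 in Doxo, and chondrocyte-like cells 144 and 134. Bone and cartilage fibroblast-like cells had 90.7 and 105 CPM. In osteoblast-like cells only 20 UMIs (25.7 CPM) were found in Veh and 9 (18.5 CPM) in Doxo, and in the unnamed cluster 8 and 14.

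Endothelial-like cells were the named class in which Cdkn1c passed 1.5-fold. Their 113 Veh UMIs (161 CPM) and 95 Doxo UMIs (271 CPM) gave a log2 ratio of 0.75 (0.34 to 1.16), with a UMI in 44.7% and 43.5% of cells (22.1% and 29.4% thinned). The ratio fell short of 1.5-fold with every cell weighing the same (0.49) and without the deepest 5% of cells (0.43). The CAR markers summed to 826 CPM in Veh and 2577 in Doxo endothelial-like cells, and since CAR-like cells are rich in Cdkn1c this is given beside the ratio, whose relation to it was not tested. Of the 6 genes with at least 20 UMIs in endothelial-like cells, Cdkn1c was the only one at least 1.5-fold higher, where 14.5% of all genes were, and none was lower, where 10.5% of all genes were.

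In arteriolar and endosteal fibroblast-like cells 1 Veh cell held 242 of the 998 Cdkn1c UMIs. The log2 ratio of -0.37 (-0.55 to -0.20) became -0.03 with the highest cell of each library left out. The lower level in Doxo was therefore not seen without that cell.

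Cdkn1b, the p27 gene, was more even across classes than its relatives. Its level in Veh ran from 41.8 CPM in chondrocyte-like cells to 106 CPM in arteriolar and endosteal fibroblast-like cells, and in Doxo from 45.5 to 82.8 CPM in the same classes. The log2 ratio was below 0 in every class except chondrocyte-like cells (0.12). Its counting interval lay below 0 in both fibroblast-like classes, at -0.42 (-0.57 to -0.27) in bone and cartilage and -0.35 (-0.62 to -0.10) in arteriolar and endosteal fibroblast-like cells, and it included 0 elsewhere. No class passed 1.5-fold for this gene.

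**Figure D3:**
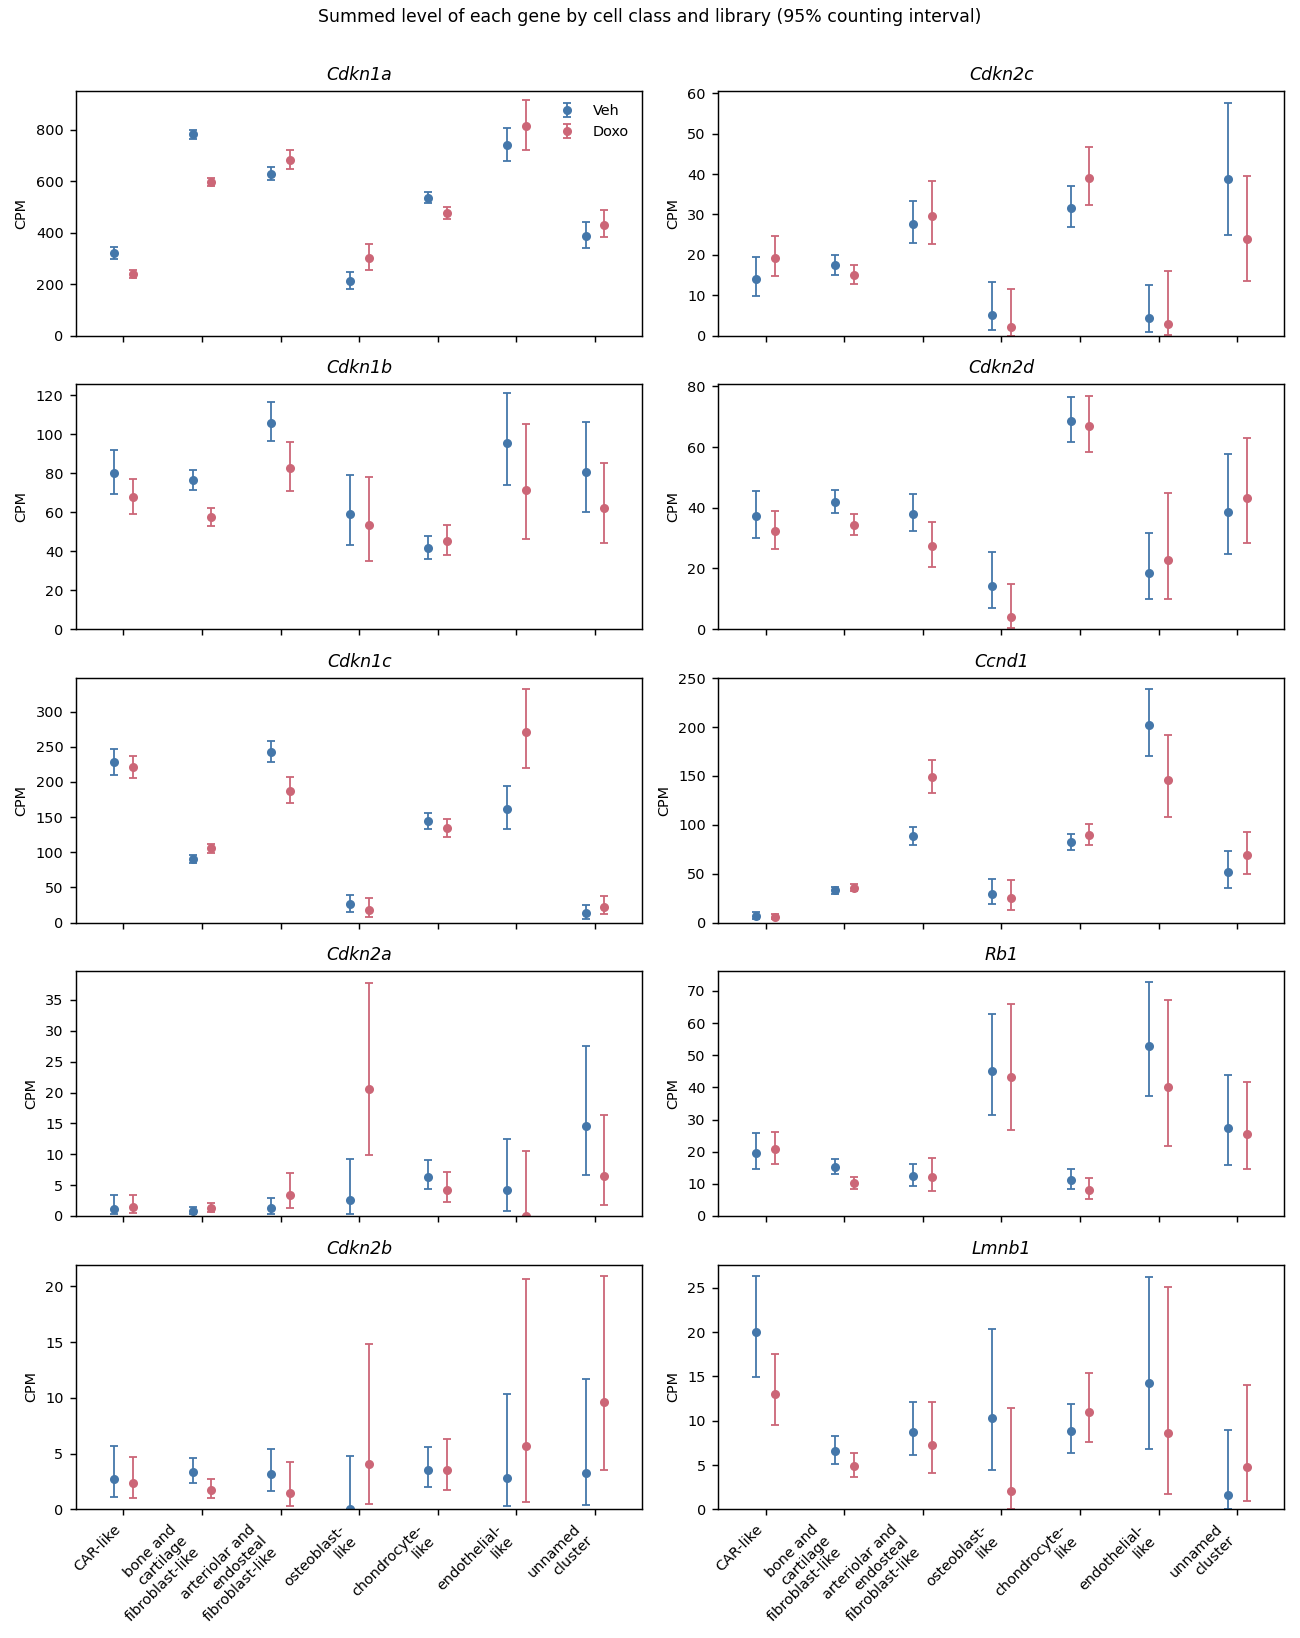
Level of each of the 10 genes (CPM, y axis from 0 on a scale of its own for each gene) in the 7 cell classes, Veh in blue and Doxo in red, with 95% counting intervals. Cdkn1a lies between 211 and 814 CPM throughout, Cdkn1c is lowest in osteoblast-like cells and the unnamed cluster, and Ccnd1 is lowest in CAR-like cells.

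The INK4 genes were scarce, and the most abundant of them over all cells was Cdkn2d. This gene was highest in chondrocyte-like cells, with 334 Veh UMIs (68.7 CPM) and 208 Doxo UMIs (67.1 CPM), and hardly differed (log2 ratio -0.03, -0.29 to 0.22). In the other classes it lay between 4.1 CPM (Doxo osteoblast-like cells) and 43.2 CPM (the unnamed cluster in Doxo). Its interval lay below 0 in bone and cartilage fibroblast-like cells, at -0.29 (-0.49 to -0.09), and in arteriolar and endosteal fibroblast-like cells, at -0.47 (-0.94 to -0.03).

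Cdkn2c, the p18 gene, was highest in Veh in the unnamed cluster (38.8 CPM) and in Doxo in chondrocyte-like cells (39.0 CPM). The chondrocyte-like cells held 154 UMIs in Veh against 121 (log2 ratio 0.30, -0.05 to 0.65), and 43.7% and 40.2% of them had a UMI (6.1% and 7.9% thinned). CAR-like cells held 36 and 65 UMIs, a ratio of 0.44 (-0.16 to 1.08). In the unnamed cluster 24 and 15 UMIs gave a ratio of -0.67 (-1.73 to 0.30), past 1.5-fold with an interval that includes 0. Osteoblast-like and endothelial-like cells held 5 or fewer UMIs of Cdkn2c over both libraries.

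Cdkn2a, the gene of p16 and ARF, had 115 UMIs in all cells of both libraries, of which chondrocyte-like cells gave 31 in Veh and 13 in Doxo. The other UMIs were thinly spread, with 3 and 5 in CAR-like cells, 5 and 7 in arteriolar and endosteal fibroblast-like cells, 9 and 4 in the unnamed cluster and 3 and 0 in endothelial-like cells. A count of 0 among 69 endothelial-like cells, taken as up to 3 counts, allows a share of cells with a UMI of up to 4.35%. In osteoblast-like cells 2 Veh cells held 1 UMI each, and 3 Doxo cells held 10, of which 8 were in 1 cell.

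Single cells decided the Cdkn2a count of bone and cartilage fibroblast-like cells too. Here 4 Veh cells held 9 UMIs and 2 Doxo cells held 14 (log2 ratio 0.67, -0.62 to 2.08), and 13 of the 14 lay in 1 Doxo cell. The ratio was -1.82 with the highest cell of each library left out, an alternative added after the values were seen. In chondrocyte-like cells the log2 ratio was -0.57 (-1.66 to 0.37). Outside the osteoblast-like cells the counting interval of the Cdkn2a ratio included 0 in every class, so no difference was detectable there at this depth.

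Cdkn2b, the p15 gene next to Cdkn2a, had 130 UMIs in all. Bone and cartilage fibroblast-like cells held 38 in Veh against 19 (log2 ratio -0.92, -1.82 to -0.11). One Veh cell held 19 of the 38, and with the highest cell of each library left out the ratio was -0.10. Assigning cells by marker genes alone gave 0.15. Chondrocyte-like cells held 17 and 11 UMIs, a ratio of 0.04 (-1.22 to 1.20), and no other class reached 20 UMIs of this gene.

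Ccnd1 encodes cyclin D1, the partner of CDK4 and CDK6. It was close to absent from CAR-like cells, at 17 UMIs (6.7 CPM) in Veh and 19 (5.6 CPM) in Doxo, and 2.7% and 3.0% of these cells held a UMI. In Veh it was highest in endothelial-like cells, at 203 CPM, and its Doxo level there was 146 CPM (log2 ratio -0.47, -0.97 to -0.00), within counting error of the 149 CPM in arteriolar and endosteal fibroblast-like cells. Of the other D-type cyclin genes, CAR-like cells held Ccnd2 at 131 CPM in Veh and 181 in Doxo and Ccnd3 at 101 and 84.6 CPM. Their levels in the other classes are not given here, so this is not a trait particular to CAR-like cells.

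The largest difference in Ccnd1 between the libraries was in arteriolar and endosteal fibroblast-like cells, with 363 Veh UMIs (88.3 CPM) and 305 Doxo UMIs (149 CPM) and a log2 ratio of 0.75 (0.53 to 0.97). The share of cells with a UMI was 29.3% in Veh and 27.7% in Doxo (12.1% and 13.3% thinned), and 1 Doxo cell held 48 UMIs. The ratio was 0.28 with every cell weighing the same, 0.30 after thinning, 0.10 without the deepest 5% of cells and -0.07 when cells were assigned by marker genes alone. Outside the 10% of cells with most Ccnd1 the level was 32.4 CPM in Veh and 39.2 in Doxo, so most of the difference lay in those few cells.

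Rb1, whose protein the inhibitors keep active, was highest in endothelial-like cells (52.8 CPM in Veh, 40 in Doxo) and osteoblast-like cells (45.1 and 43.1 CPM), whose intervals overlapped. It was lower in CAR-like cells, at 19.6 and 20.8 CPM (log2 ratio 0.08, -0.46 to 0.64). For bone and cartilage fibroblast-like cells 172 Veh UMIs (15.3 CPM) and 110 Doxo UMIs (10.2 CPM) gave a ratio of -0.59 (-0.95 to -0.23). This lies just past 1.5-fold, and it fell short under most alternatives, among them -0.30 at resolution 0.2 and -0.36 when cells were assigned by marker genes alone.

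Lmnb1, on the plus strand of chromosome 18 (56707813 to 56753424), was highest in CAR-like cells, with 51 Veh UMIs (20.0 CPM) and 44 Doxo UMIs (13.1 CPM). The log2 ratio was -0.61 (-1.23 to -0.00), and 9.97% and 7.01% of cells had a UMI (3.68% and 2.28% thinned). The ratio was -0.55 when the 10 genes and context lists were kept out of the clustering, -0.55 by marker genes alone and -0.53 without the deepest 5% of cells, all short of 1.5-fold, while the other alternatives ran from -0.61 to -1.14, the latter with 20 principal components. In population 1 the ratio was -0.56 (-1.27 to 0.17), and in population 2, on 20 Veh and 3 Doxo UMIs, it was -1.50 (-4.08 to 0.06). Immune markers summed to 1201 CPM in Veh and 96 in Doxo over these cells, and their part in the Lmnb1 ratio was not tested. Levels elsewhere lay between 1.6 CPM (the unnamed cluster in Veh) and 14.3 CPM (Veh endothelial-like cells), and no other class passed 1.5-fold with 20 UMIs. Mki67, the proliferation marker, was lower in Doxo in CAR-like cells as well, its 62 Veh and 53 Doxo UMIs giving -0.63 (-1.19 to -0.08). Among the 11 measured E2F target and proliferation genes no other was at least 1.5-fold lower there. Rrm2, Top2a and Tyms of that list were higher, as were Cdk1, Ccna2 and Ccnb1. The part of the immune markers in the Mki67 ratio was not tested either.

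**Figure D4:**
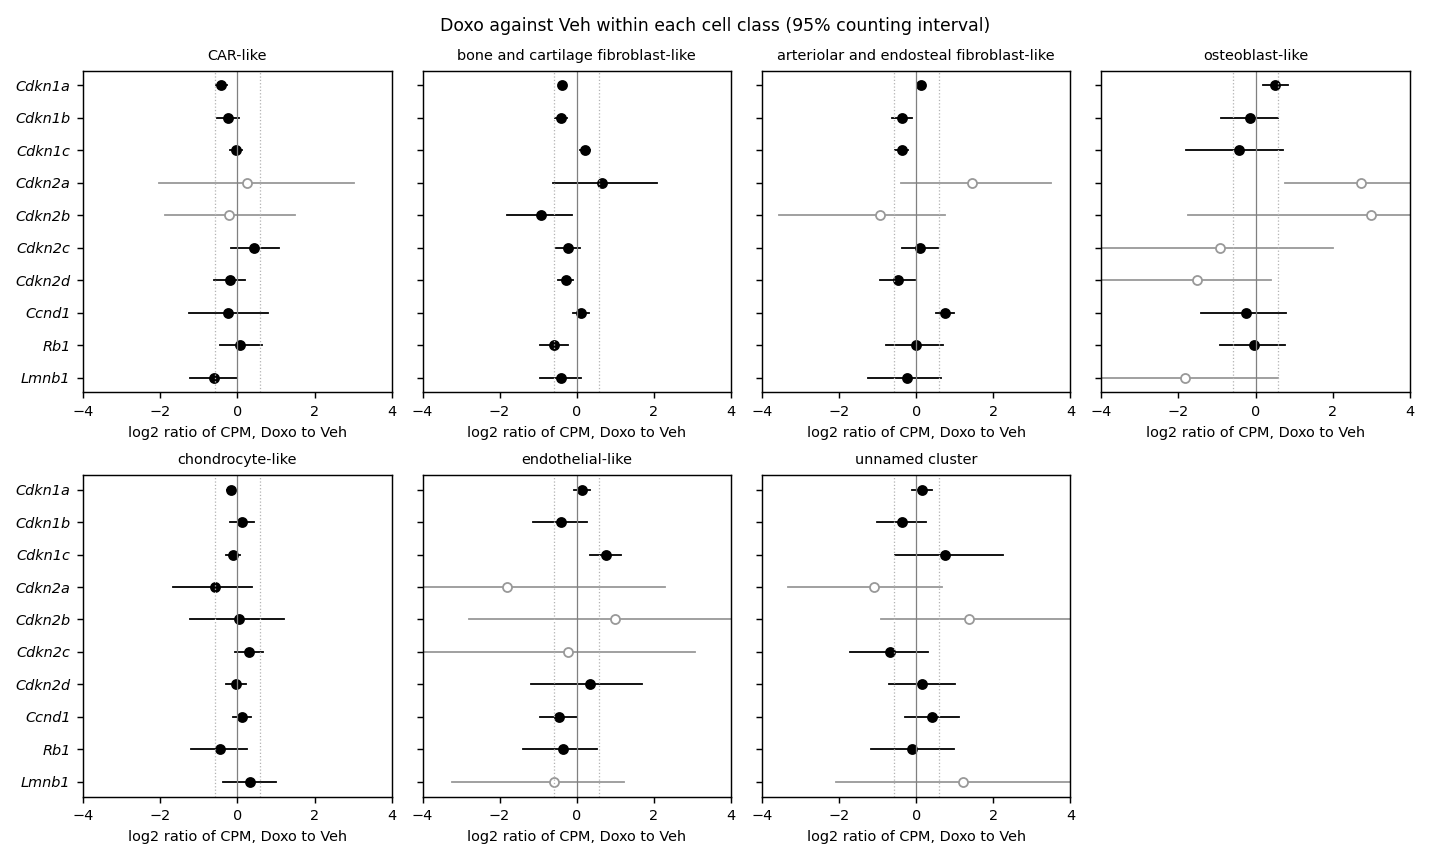
Log2 ratio of CPM in Doxo to Veh (x axis) for the 10 genes in each cell class, with 95% counting intervals, some of which run past the axis. Filled black points have at least 20 UMIs over both libraries, open grey points have fewer, and dotted lines mark 1.5-fold in either direction. All filled Cdkn1a points lie within the dotted lines, at -0.42 in CAR-like and 0.52 in osteoblast-like cells.

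Counted together, at most 3 of the 10 genes passed 1.5-fold in any class, counts too small to be set apart from the shares of all genes given beside them. In CAR-like cells 0 of the 8 genes with at least 20 UMIs were higher in Doxo and 1 (Lmnb1) was lower, where 12.9% of 11508 genes were higher and 9.89% lower. The median log2 ratio of the 8 was -0.22, and that of all genes 0.06. In bone and cartilage fibroblast-like cells 1 of 10 (Cdkn2a) was higher and 2 (Cdkn2b and Rb1) were lower, against 4.17% and 9.38% of all genes, and the median was -0.34 against -0.09. In arteriolar and endosteal fibroblast-like cells 1 of 8 (Ccnd1) was higher and 0 were lower, against 7.07% and 9.35%, with a median of -0.12 against -0.01. In osteoblast-like cells 0 of 5 passed in either direction, against 12.8% higher and 18.6% lower, and in chondrocyte-like cells 0 of 10, against 14.8% and 11.5%, with medians of -0.14 and 0.01 against -0.03 and 0.05. The median was -0.12 against 0.04 in endothelial-like cells, whose counts are given above. In the unnamed cluster 1 of 7 (Cdkn1c) was higher and 1 (Cdkn2c) lower, against 12.5% and 10.1%, and both rest on fewer than 40 UMIs.

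The other genes of the pathway, read in CAR-like cells, lay on both sides. Of 9 measured cyclins and CDKs 3 were at least 1.5-fold higher in Doxo and 0 lower, with a median log2 ratio of 0.38. Among all genes of these cells 12.9% were higher and 9.89% lower, the shares to set beside each list here. The mitotic kinase gene Cdk1 had 9 Veh and 69 Doxo UMIs (2.47, 1.53 to 3.72), and the mitotic cyclins Ccna2 and Ccnb1 had ratios of 1.00 and 0.64 on fewer than 40 UMIs each. Of 11 E2F target and proliferation genes 3 were higher and 1 (Mki67) lower, with a median of -0.04. The higher ones serve nucleotide supply and DNA untangling: Tyms at 0.88 (0.22 to 1.61), Rrm2 at 0.75 (0.10 to 1.46) and Top2a at 0.59 (0.14 to 1.07). Of 8 RB relatives and E2F factors with enough UMIs none passed 1.5-fold.

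Of the 9 measured p53 targets, a list that leaves out Cdkn1a, 3 were higher in Doxo CAR-like cells and 2 lower, with a median of 0.47. Of all genes in this class 12.9% were higher and 9.89% lower. Phlda3, an inhibitor of AKT signalling, stood at 91.8 CPM in Veh and 193 in Doxo (1.07, 0.85 to 1.29), Trp53inp1 at 18.4 and 39.5 CPM (1.09, 0.61 to 1.61), and the cell death gene Bax at 98.1 and 157 CPM (0.68, 0.46 to 0.90). Gdf15, a secreted stress factor, was lower at -1.88 (-2.32 to -1.48), and Sesn2 at -0.78 (-1.37 to -0.21). Over all CAR-like cells Cdkn1a, at -0.42, lay on the other side of 0 from Phlda3, Trp53inp1 and Bax. In population 1, where Cdkn1a was higher at 1.14, 5 of 9 p53 targets were higher and 0 lower (median 0.65), and in population 2, where it was lower at -0.63, 3 were higher and 2 lower (median 0.23). The share of all genes past 1.5-fold was not computed within the populations, so these counts cannot be set against it. In chondrocyte-like cells 5 of 8 measured p53 targets were higher and 2 lower, where 14.8% and 11.5% of all genes were, with a median of 0.85, while Cdkn1a had a ratio of -0.17. The dissociation genes differed there too, at 11108 CPM in Veh and 23848 in Doxo, and their part was not tested. In bone and cartilage fibroblast-like cells 0 of 10 were higher and 1 was lower, where 4.17% and 9.38% of all genes were.

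Of the 14 regulators of the inhibitors, 1 was higher in Doxo CAR-like cells and 5 were lower, with a median of -0.27, where 12.9% of all genes were higher and 9.89% lower. In population 1 alone 2 were higher and 2 lower (median 0.10), and in population 2, of 12 measured, 0 were higher and 5 lower (median -0.18). These population counts, too, have no share of all genes beside them. Myc, which represses several inhibitor genes, stood at 328 CPM in Veh and 62.6 in Doxo (-2.38, -2.61 to -2.17). The ETS factors, known activators of Cdkn2a, were lower too, Ets1 at -1.38 (-1.59 to -1.17) and Ets2 at -1.41 (-1.85 to -0.99), as were Foxo3 at -0.95 (-1.36 to -0.54) and Smad3 at -0.68 (-1.41 to 0.02). Skp2, which marks p27 for destruction, had 12 Veh and 26 Doxo UMIs (0.68, -0.32 to 1.83). Myc is also one of the genes that lead population 2, which made up 146 of 371 Veh and 70 of 428 Doxo CAR-like cells. Of the 6 measured lamina and HMG genes only Lmna passed, at -0.80 (-0.96 to -0.65), and Hmgb1, another nuclear protein gene, had a ratio of 0.08. Of the 10 dissociation genes 3 were lower, Atf3 at -1.61 (-1.80 to -1.43), Hspa1a at -1.12 and Hspa1b at -0.79. Within the populations most differences of this list lay the other way, with 5 higher and 1 lower in population 1 (median 0.55), 3 higher and 1 lower in population 2 (0.38) and 10 higher in population 3 (1.86), again without a share of all genes.

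For each gene with at least 200 UMIs, the genes with the most similar level over the 14 combinations of class and library were sought among 10693 genes, as a description of these points, which share depth and libraries. Cdkn1a was most like Itga5 (Pearson r 0.93) and Tns1 (0.91), Cdkn1c like Bbip1 (0.93) and Lpar4 (0.91), and Cdkn1b like Tcea1 and Scaf11 (both 0.94). Cdkn2c was most like Hspb11 (0.97) and Arl3 (0.95), and Cdkn2d like Phyh (0.95) and Creg1 (0.94). Ccnd1 was most like Clcn3 (0.91) and Eef2 (0.90), Rb1 like Dab2ip (0.97) and Atp13a2 (0.94), and Lmnb1 like Pde4c and Rccd1 (both 0.92). Cdkn2a and Cdkn2b had too few UMIs for this.

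Markers of other cells differed between the libraries. Immune markers summed to 1020 CPM in Veh and 95 in Doxo in bone and cartilage fibroblast-like cells, the class in which Rb1 was lower, and to 1201 and 96 in CAR-like cells. Across the 7 classes erythroid markers summed to between 129 and 703 CPM in Veh and between 5 and 63 in Doxo, and osteoblast markers in CAR-like cells summed to 9297 CPM in Veh and 2510 in Doxo. Megakaryocyte markers summed to 595 CPM in Veh and 313 in Doxo in arteriolar and endosteal fibroblast-like cells. With 20 principal components the first clustering set apart 44 cells with 8 of 8 megakaryocyte markers. Endothelial markers summed to at most 41 CPM outside the endothelial-like cells. Their part in the levels of the 10 genes was not tested.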

How the data were processed

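The deposited values, which the authors made with Cell Ranger (GRCm38) and, per the submitters' processing notes, Partek, are log2 values per gene and cell, 1 table for each library. The values show that UMIs were scaled to 1000000 per cell, put on a log scale, scaled again and put on a log2 scale. These steps were inverted and 99.9% of values came out within 0.05 of whole UMIs. Tool versions are not given in the sources used here.

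Both libraries were merged in Seurat 5.3.0 (R 4.3.3) and clustered first with all cells and then without endothelial-like cells. The 35 principal components and the resolution of 0.1 follow the study, which gives no number for the 2000 variable genes used here. The study also removed immune and pericyte clusters and imputed values, steps not repeated here. All cells met its limits (200 to 10000 genes, 100 to 100000 UMIs, at most 10% mitochondrial UMIs). A cluster was named from at least 3 of 8 markers found in 10% of its cells and 1 log2 unit above the rest. Doublets were kept, and leaving out the deepest 5% of cells was an alternative.

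UMIs were summed per class and library, with exact Poisson, binomial and conditional binomial intervals (scipy 1.17.1) and 0.5 UMI added to each sum for ratios. A gene was counted at 1.5-fold or more with at least 20 UMIs over both libraries. Counts per library were 24859695 UMIs in Veh and 20792012 in Doxo. The computation of the interval was checked on simulated Poisson counts (11508 genes, CAR-like totals), where 95.7% of intervals held the true ratio. The interval assumes such counts, so this says nothing of the spread between cells, which it leaves out. All 10 genes are named in every class, context genes where they passed 1.5-fold in CAR-like cells, and 2 similar genes per member. Ccnd2, Ccnd3 and Hmgb1 were named after their values were seen. The members and lists were chosen with earlier results of these data known. Alternatives were a stricter cell filter, resolution 0.2, 20 components, clustering without the genes, marker assignment, equal weights, thinning, centring, other UMI minimums, and, added later, leaving out the highest cell.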

Additional observations from a re-analysis of the deposited data

Results flagged for a closer look

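Cdkn1a was higher in Doxo in population 1 of the CAR-like cells, with a log2 ratio of 1.14, and lower in Doxo in population 2, with a log2 ratio of -0.63, so the populations stood on opposite sides. The difference between these ratios was not tested, since there is 1 library per condition. These rest on 215 cells from Veh and 341 from Doxo in population 1, and on 146 and 70 in population 2.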

How the results depend on the processing

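No paired analysis was possible because each condition has 1 library. Of the recomputed ratios, 491 stayed within the counting interval of the reported value, 41 moved outside it without reversing a call, and 6 of ratios past 1.5-fold changed sign. Among ratios short of 1.5-fold 49 changed sign, 8 of them outside the interval, including Cdkn1a in CAR-like cells (0.84 without population 2) and in osteoblast-like cells (-0.36 by marker genes alone). The 6 concern Cdkn2a, Cdkn2b and Ccnd1. Cdkn2a in bone and cartilage fibroblast-like cells (0.67) became -2.61 without the deepest 5% of cells, -1.06 with every cell weighing the same, -0.93 with each cell thinned to 2000 UMIs and -1.82 without the highest cell of each library. Assigning cells by marker genes alone gave Cdkn2b there 0.15 and Ccnd1 in arteriolar and endosteal fibroblast-like cells -0.066. Cdkn1a in CAR-like cells (-0.42) moved to -0.73 without the deepest 5%, -0.58 at resolution 0.2, -0.59 with 20 components, -0.61 by marker genes alone and 0.84 without population 2. Cdkn2a in CAR-like cells stayed within its interval under each of these alternatives. The cause was not tested.

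Of the recomputed counts of genes past 1.5-fold, 115 stayed within 1.5 times the reported count and 49 did not. With the stricter cell filter, 2 genes were lower in osteoblast-like cells and 1 each in chondrocyte-like and in bone and cartilage fibroblast-like cells, and 0 were higher in the unnamed cluster. Without the deepest 5% of cells, 0 were higher in either fibroblast-like class and in endothelial-like cells and 1 in osteoblast-like cells. At resolution 0.2, 0 were lower in bone and cartilage fibroblast-like cells and 3 higher in osteoblast-like cells. With 20 components, 2 were lower in CAR-like and 1 in bone and cartilage fibroblast-like cells, and 2 were higher in arteriolar and endosteal fibroblast-like cells. With clustering without the genes and context lists, 0 were lower in CAR-like cells and 1 each in bone and cartilage fibroblast-like, osteoblast-like and chondrocyte-like cells. By marker genes alone, 2 were lower in osteoblast-like, 1 in chondrocyte-like and 0 in bone and cartilage fibroblast-like cells, while 0 were higher in arteriolar and endosteal fibroblast-like and 1 in osteoblast-like cells. With every cell weighing the same, 0 were higher in either fibroblast-like class and in endothelial-like cells and 1 in osteoblast-like cells, and the unnamed cluster had 2 higher and 0 lower. With each cell thinned, 0 were higher in either fibroblast-like class and the unnamed cluster, 1 was higher in osteoblast-like cells, 1 lower in bone and cartilage fibroblast-like cells and 0 lower in the unnamed cluster. Centred on the median gene, 1 was lower in bone and cartilage fibroblast-like and 1 in chondrocyte-like cells. Without population 2, 1 was higher in CAR-like cells. With a minimum of 10 UMIs, arteriolar and endosteal fibroblast-like cells had 2 higher and 1 lower, osteoblast-like cells 1 and 1, and the unnamed cluster 2 lower. With a minimum of 50, bone and cartilage fibroblast-like cells lost the higher one (0), and the unnamed cluster had 0 in either direction. Without the highest cell, bone and cartilage fibroblast-like cells had 0 in either direction, chondrocyte-like cells 1 lower and the unnamed cluster 0 higher. Resolution 0.2, 20 components and marker assignment gave no single unnamed cluster, so it has no value there.

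Of 108 shares of the leading inhibitor, 76 stayed within their interval. Markers of sorted-out cells and the dissociation genes differed between the libraries. Sums of fewer than 20 UMIs leave intervals too wide for a ratio to be read, which limits Cdkn2a and Cdkn2b in most classes.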

Other observations

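In arteriolar and endosteal fibroblast-like cells 6 of 12 measured E2F target and proliferation genes were at least 1.5-fold lower in Doxo and 1 (Mcm6) was higher, where 9.35% of all genes were lower and 7.07% higher, with a median log2 ratio of -0.50. The lower ones were the replication helicase genes Mcm2 and Mcm5, the nucleotide genes Rrm2 and Tyms, and Mki67 and Top2a. In these cells Ccnd1 was at least 1.5-fold higher in Doxo. Megakaryocyte markers summed to 595 CPM in Veh and 313 in Doxo in this class, and their part in these ratios was not tested. In bone and cartilage fibroblast-like cells 2 of 12 of this list (Mki67 and Top2a) and 3 of 11 RB relatives and E2F factors (E2f1, E2f2 and E2f8) were lower and none was higher, where 9.38% of all genes were lower and 4.17% higher. In endothelial-like cells 3 of 5 measured RB relatives and E2F factors (E2f4, Rbl2 and Tfdp1) were higher in Doxo and none was lower, where 14.5% of all genes were higher and 10.5% lower. The CAR markers summed to 826 CPM in Veh and 2577 in Doxo in these cells, and their part was not tested.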
